A study of Mus musculus with 5 samples.

Results

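HEB is a basic helix-loop-helix factor of the E protein family. It is the product of Tcf12, and binds E-box sequences as a dimer. In the thymus it is known for its part in the rearrangement and selection steps that double positive (DP) thymocytes, which carry both CD4 and CD8, go through. TCF1, encoded by Tcf7, is an HMG-box factor that is required for T cell development. DNase I cuts DNA where nucleosomes are displaced, so a DNase I hypersensitive region marks open chromatin, and most binding of sequence-specific factors is known to fall in such regions.

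The regions described here are HEB regions that scored high yet lay outside the open chromatin mapped in the same cell type. They were chosen by 2 measured values: a deposited HEB score of 15 or more, and no overlap of 1 bp or more with any DNaseI region, on chromosomes 1 to 19. This rule gave 424 regions among the 4930 of the HEB list. The same chromosomes held 4815 HEB regions, of which 1277 scored 15 or more, and 853 of these lay inside DNaseI regions. The 424 were therefore 33.2% of the high-scoring regions, whereas 64.7% of autosomal HEB regions of any score lay outside. Those 853 regions, weighted to the same scores, and the 2691 HEB regions outside DNaseI regions with scores below 15 served as comparisons.

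All samples came from DP thymocytes of C57/BL6 mice aged 4 to 6 weeks, with no treatment or genetic change given. The labels describe 5 samples, 1 per assay, and the lists for DNase I hypersensitivity, HEB and TCF1 were used; the H3K9me3 and H3K27ac samples were not analysed here. With 1 sample per assay no comparison has a biological error or a test, and intervals given below are 95% intervals for counting error over regions of 1 list. Read depth behind the lists is not given in the sources used here. Coordinates are of build mm9, counted from 1. No mm9 sequence or gene annotation was used here, so the regions are given by position without gene, exon or motif. No control library, list of problem regions or mappability track was used either, and repeated sequence at the regions was not examined.

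All HEB regions had the same width. Among the 424 regions the score ran from 15 to 70, with a median of 18 (quartiles 16 and 23.3). Most sat near the threshold: 280 scored 20 or less, 44 scored above 30 and 4 scored above 50. In the group inside DNaseI regions the median was 20 (quartiles 17 and 27), with 20 regions above 50 and a highest score of 99. At the edge of the score rule stood 72 regions with a score of 15 and, just outside it, 144 HEB regions with a score of 13, since no HEB region carried a score of 14. At the edge of the overlap rule, the closest region lay 7 bp from a DNaseI region (chr7:30064402-30064602, score 15). The next, chr4:32256925-32257125 with a score of 19, lay 10 bp away. Just inside the rule was 1 high-scoring region with 10 bp or less of overlap, chr19:45634644-45634844, with a score of 26 and 2 bp of overlap. The overlap rule cut few regions close: 726 of the 853 inside regions (85.1%) lay in DNaseI regions over their whole width, and 11 of the 424 outside regions lay within 200 bp of one.

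These regions mostly lay far from open chromatin. The median distance to the nearest DNaseI region was 184 kb (quartiles 27.5 and 632 kb), and the farthest lay 5.77 Mb away. For the inside regions, with the DNaseI region they overlap left out, the median distance to another one was 1.52 kb, and it was also 1.52 kb after weighting to equal scores. A DNaseI region within 10 kb was found for 61 of the 424, or 14.4% (Wilson interval 11.4 to 18.05%). The same held for 45% of all autosomal HEB regions, counting only DNaseI regions that they do not overlap. At equal score 87.5% of inside regions had another DNaseI region within 10 kb, a share 73.0 percentage points higher (Newcombe interval 68.5 to 76.8). That comparison, like the others at equal score, leaves out the 2 highest-scoring outside regions, whose scores no inside region had. The overlap rule places every inside region in open chromatin, and how much of the difference follows from that was not tested.

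**Figure D1:**
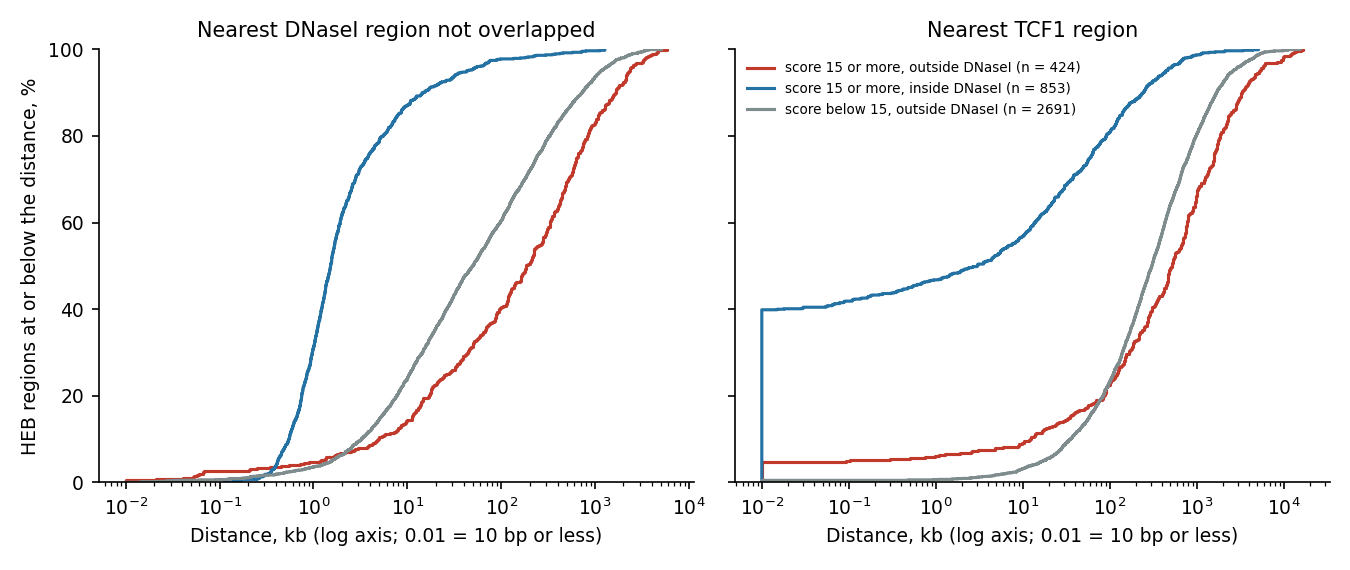
Cumulative share of HEB regions (y axis, %) by distance on a log axis (kb) to the nearest DNaseI region they do not overlap (left) and to the nearest TCF1 region (right), for 3 groups of HEB regions. High-scoring regions outside DNaseI regions, with a median of 184 kb to a DNaseI region, lie to the right of low-scoring outside regions at 49.5 kb and of inside regions at 1.52 kb.

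The surroundings showed the same contrast on a wider scale. Within 100 kb on either side, the median outside region had 0 DNaseI regions (quartiles 0 and 3) and the median inside region had 20 (11 and 30), not counting one that it overlaps. Within 1 Mb these medians were 14.5 and 95. There were 252 of the 424 regions (59.4%) with no DNaseI region within 100 kb, and 71 (16.7%) with none within 1 Mb. Among the 853 inside regions, 19 had no other DNaseI region within 100 kb and 3 had none within 1 Mb. Among low-scoring outside regions, 39.5% had none within 100 kb and 6.39% had none within 1 Mb. The stretches around the 424 regions were thus poor in open chromatin for the most part, but not all were: the richest had 53 DNaseI regions within 100 kb.

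High-scoring outside regions also lay farther from open chromatin than low-scoring ones. For HEB regions outside DNaseI regions with scores below 15, the median distance was 49.5 kb (quartiles 10.5 and 238 kb). More than 100 kb separated 59.4% of the high-scoring and 39.5% of the low-scoring outside regions from the nearest DNaseI region, a difference of 19.9 points (14.8 to 24.8). The median distance was 40.7 kb at scores of 9 and 10, 56.4 kb at 11, 110 kb at 12 and 13, 133 kb at 15 and 16, 211 kb at 17 to 20, 184 kb at 22 to 27 and 277 kb at 29 and above. The share beyond 100 kb was 36.8% in the lowest of these score classes and 69.1% (38 of 55) in the highest, so the distance was longer at higher scores, with the class of 22 to 27 below its lower neighbour. The share of HEB regions that lay outside went from 84.0% in the lowest class to 22.2% in the highest, with 36.9% at 15 and 16 and 38.1% at 17 to 20, and the highest scores therefore had fewer outside regions, but more distant ones.

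Within the 424, the median score was much alike at all distances. The median does not show the highest scores: 52.4% of regions at scores of 15 and 16 lay beyond 100 kb, against 69.1% at 29 and above. The median score was 18 for the 29 regions within 2 kb of a DNaseI region, 18 for the 32 at 2 to 10 kb, 18 for the 111 at 10 to 100 kb, 19 for the 181 at 100 kb to 1 Mb and 18 for the 71 farther away. High scores appeared at nearly every distance, with highest values of 44, 41, 38, 70 and 55 in these classes.

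**Figure D2:**
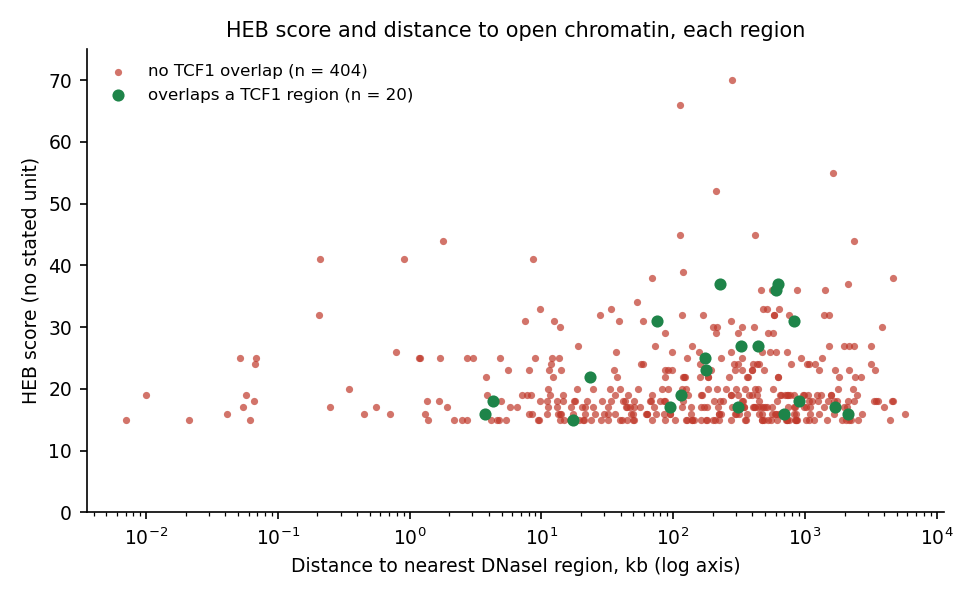
HEB score (y axis, no stated unit) against distance to the nearest DNaseI region (x axis, kb, log) for each of the 424 regions, with the 20 that overlap a TCF1 region in green. Scores of 15 to 20 are found at all distances, and the 4 regions above 50 all lie more than 100 kb from a DNaseI region.

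The 10 highest-scoring regions show how varied the settings were. First was the region at chr6:4317639-4317839, with a score of 70, which lay 280 kb from the nearest DNaseI region and 281 kb from the nearest TCF1 region. The region at chr19:20534215-20534415 scored 66 and lay 114 kb from a DNaseI region and 3.76 Mb from a TCF1 region. The region at chr16:80269619-80269819 scored 55, lay 1.64 Mb from open chromatin and had a HEB region of score 12 with its centre 888 bp away. The first 3 thus stood in wide stretches without open chromatin, and 1 of them had a weaker HEB region beside it.

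Of the others, the region chr12:17968919-17969119 scored 52 and lay 211 kb from a DNaseI region. The region at chr4:3388448-3388648 scored 45 at 113 kb. The region at chr11:7481134-7481334 scored 45 at 420 kb, and 1221 bp from it stood another outside region with a score of 20. These resembled the first 3 in their distance from open chromatin.

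The region chr12:50102283-50102483 scored 44 and lay 2.38 Mb from any DNaseI region. The last 3 lay much nearer. The region at chr17:34358102-34358302 scored 44 and lay 1.79 kb from a DNaseI region with a DNaseI score of 9. The region at chr5:150230451-150230651 scored 41 and lay 209 bp beside a DNaseI region of 1322 bp with a DNaseI score of 127, which held a HEB region of score 20 and, 301 bp away, a TCF1 region of score 8. The region at chr6:29697639-29697839 scored 41 and lay 8.62 kb from a DNaseI region. In all, 7 of these 10 lay more than 100 kb from open chromatin, and none overlapped a TCF1 region. Of all 424, 59.4% lay that far from open chromatin and 4.72% overlapped a TCF1 region. A further region, chr12:100549593-100549793, had the same score of 41 and came after these 10 by chromosome order, 900 bp from a DNaseI region.

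The 3 regions farthest from open chromatin were all on chromosome 15. The farthest, from 19427878 to 19428078 with a score of 16, lay 5.77 Mb from a DNaseI region and 6.08 Mb from a TCF1 region. The other two, from 17508935 to 17509135 and from 17504573 to 17504773, scored 38 and 18 and lay 4362 bp from each other, 4.65 Mb from the same DNaseI region. Neither had a TCF1 region within 6.04 Mb, so both stood side by side, with no DNaseI or TCF1 region within 4.65 Mb.

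Few of the high-scoring outside regions met TCF1. Overlap with a TCF1 region was found for 20 of 424, or 4.72% (Wilson interval 3.07 to 7.17%), against 11.8% of all autosomal HEB regions. Among the high-scoring inside regions it was 337 of 853, or 39.5% (36.3 to 42.8%). At equal score the inside share was 36.6%, which was 31.9 points higher (27.6 to 35.8). Since most TCF1 regions lie in DNaseI regions, choosing HEB regions outside them lowers this share by itself. Low-scoring outside regions, which the same overlap rule chose, met TCF1 in 13 of 2691 cases, or 0.483% (0.283 to 0.825%). The high-scoring outside regions stood 4.23 points above these (2.56 to 6.70).

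TCF1 overlap outside open chromatin was more frequent at HEB scores of 15 and above than at lower scores. It was 0.239% (4 of 1672) at scores of 9 and 10, 0.792% (5 of 631) at 11, 1.03% (4 of 388) at 12 and 13, 3.23% (4 of 124) at 15 and 16, 3.85% (6 of 156) at 17 to 20, 5.62% (5 of 89) at 22 to 27 and 9.09% (5 of 55) at 29 and above. Each class rests on 4 to 6 overlaps. With other score classes the outside share was 5.10% at 17 and 18 and 1.72% at 19 and 20. It was 4.29% at 21 to 25 and 6.67% at 26 to 30. Among high-scoring regions the share thus did not rise at every step. The outside intervals given below for 15 and 16 and for 31 and above overlapped each other. No trend among high-scoring outside regions is therefore read. Inside DNaseI regions the share at scores of 15 and 16 was 34.4% (28.4 to 41.1%), and at scores of 31 and above it was 54.7% (47.0 to 62.3%). At those scores the outside shares were 3.23% (1.26 to 8.00%) and 11.4% (4.95 to 24.0%), so inside and outside intervals did not overlap at either end of the score range.

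**Figure D3:**
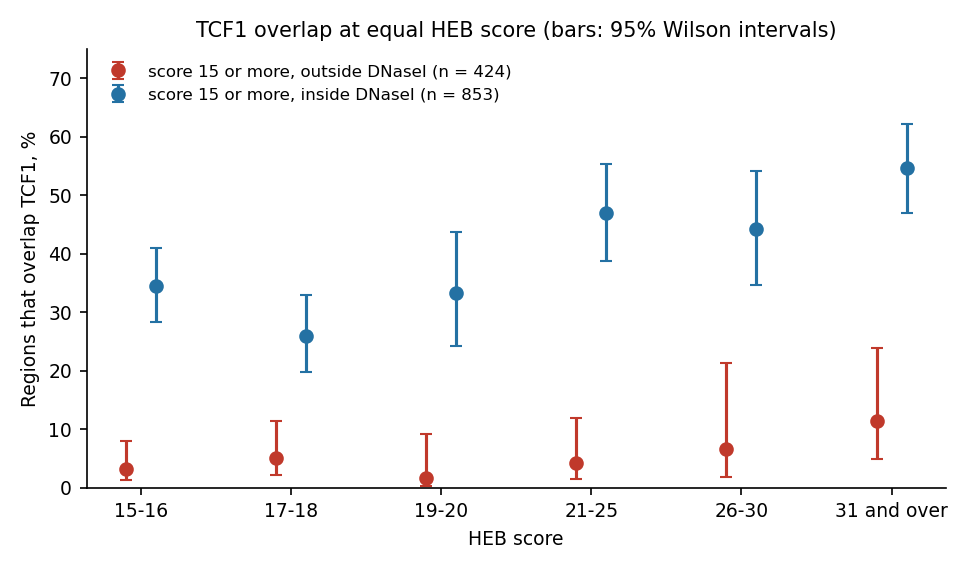
Share of HEB regions that overlap a TCF1 region (y axis, %) by HEB score class (x axis), outside and inside DNaseI regions, with 95% Wilson intervals as bars. Outside shares stay between 1.72% and 11.4%, and inside shares between 25.9% and 54.7%.

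The 20 regions that met TCF1 met 20 different TCF1 regions, none of which lay in a DNaseI region. They lay at 3.74 kb to 2.11 Mb from open chromatin, with a median of 268 kb against 183 kb for those without TCF1. More than 100 kb away lay 14 of the 20, against 59.4% of all 424. The median HEB score of the 20 was 20.5 (quartiles 17 and 28) against 18 (16 and 23) without TCF1. Their TCF1 scores ran from 8 to 20, with a median of 10, which was also the median of the 485 TCF1 regions outside DNaseI regions that met no HEB region. From the side of TCF1, 33 of its 518 autosomal regions outside DNaseI regions met HEB, 20 of them at high-scoring and 13 at low-scoring HEB regions.

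Among these 20, the HEB and TCF1 regions were closely aligned. The centres lay a median of 7 bp apart (quartiles 4 and 10.5). In the 337 inside regions that met TCF1 the median was 47 bp (20 and 83). Within 20 bp, a limit chosen after the values were seen, lay 16 of the 20 outside (80%, Wilson interval 58.4 to 91.9%) and 85 of the 337 inside (25.2%, 20.9 to 30.1%). For the 13 low-scoring outside regions that met TCF1 the median was 34 bp, with 5 within 20 bp. What the aligned positions share in sequence was not tested.

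**Figure D4:**
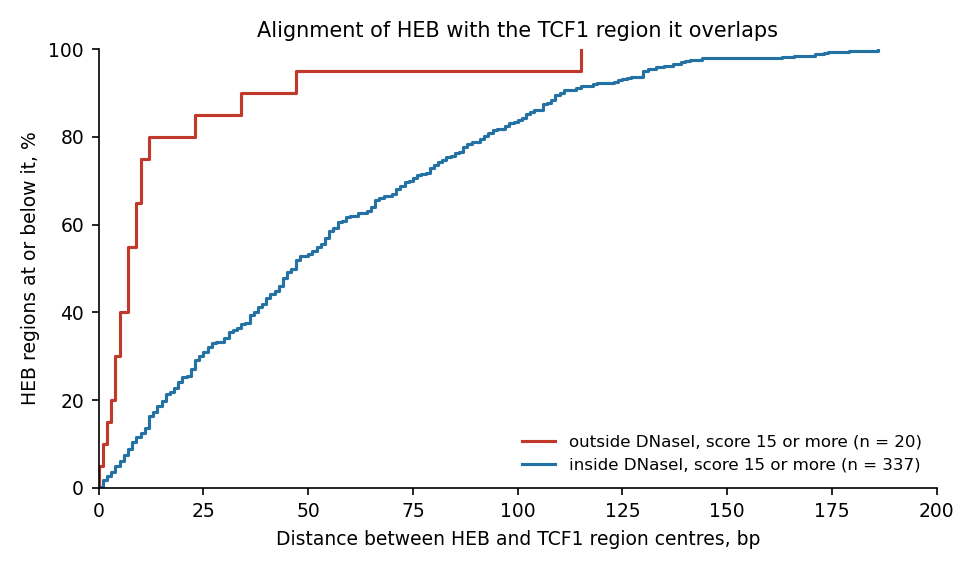
Cumulative share (y axis, %) of high-scoring HEB regions that overlap a TCF1 region by the distance between both centres (x axis, bp), outside (20 regions) and inside (337 regions) DNaseI regions. The outside curve reaches 80% within 20 bp, where the inside curve stands at 25.2%.

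The highest-scoring of the 20 were chr12:60546629-60546829 and chr19:39676513-39676713, both with a HEB score of 37. The first met the TCF1 region from 60546645 to 60546827 (TCF1 score 11), 225 kb from open chromatin. The second met that from 39676515 to 39676697 (TCF1 score 13), 630 kb from open chromatin, and had another outside HEB region of score 33 with its centre 1477 bp away. Both were thus strong HEB regions with a TCF1 region of ordinary score, far from any DNaseI region.

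The region at chr9:90757559-90757759 (HEB score 36) met a TCF1 region of score 9, 603 kb from open chromatin. The region at chr3:28780350-28780550 (HEB score 31) met one of score 13 at 75.9 kb, and the region at chr13:7953765-7953965 (HEB score 31) met one of score 12 at 826 kb. The next in score were chr2:66688715-66688915 and chr17:72801038-72801238, both at 27, with TCF1 scores of 8 and 9. The regions chr9:53853251-53853451 (25), chr8:49279650-49279850 (23) and chr18:8713300-8713500 (22) completed the first 10, with TCF1 scores of 10, 10 and 9. Of these 10, the region on chromosome 18 lay nearest to open chromatin, at 23.2 kb. The highest TCF1 score of the 20 was 20, on chromosome 6 at the HEB region from 68390537 to 68390737, whose HEB score was 18.

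A TCF1 region near but not on the HEB region was less frequent than for inside regions. It was found within 10 kb for 19 of the 424 (4.48%, interval 2.89 to 6.89%), against 8.68% of all autosomal HEB regions. It was found for 147 of the 853 inside regions (17.2%, 14.8 to 19.9%). Low-scoring outside regions had one in 72 of 2691 cases (2.68%, 2.13 to 3.36%), which put the 424 higher by 1.81 points (0.0725 to 4.28). In 13 of the 19, the nearest TCF1 region itself lay in a DNaseI region, as most TCF1 regions do. Of all 3511 autosomal TCF1 regions, 518 lay outside DNaseI regions. The median distance to the nearest TCF1 region, overlaps counted as 0, was 521 kb outside, 3.02 kb inside and 307 kb for low-scoring outside regions.

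HEB regions near one another were as follows. Another HEB region of any score had its centre within 10 kb in 103 of the 424, or 24.3% (Wilson interval 20.5 to 28.6%), against 16.3% of all autosomal HEB regions. At equal score 29.5% of inside regions had one, a difference of 5.13 points with an interval of -0.245 to 10.3 that includes 0. The sign of the difference changed with the distance allowed, but at these settings only the interval at 50 kb was clear of 0. Within 2 kb the outside regions had the higher share, 15.2% against 11.5% at equal score, a difference of 3.66 points with an interval of -0.341 to 7.95 that also includes 0. Within 50 kb the inside regions had the higher share, by 18.3 points (12.3 to 24.1). Low-scoring outside regions had one within 10 kb in 8.44% of cases (7.44 to 9.55%), 15.9 points fewer than the 424 (11.9 to 20.3). High-scoring outside regions thus had close HEB neighbours more often than low-scoring ones did.

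The nearest neighbours mostly lay outside open chromatin too. In 93 of the 103 cases (90.3%, 83.0 to 94.6%) the nearest HEB region also lay outside DNaseI regions, 38 times another of the 424 and 55 times a low-scoring one. For inside regions with a neighbour, 22 of 255 (8.63%, 5.77 to 12.7%) had their nearest one outside, and over all autosomal HEB regions with a neighbour the share was 42.5%. This was not particular to high scores: for low-scoring outside regions it was 198 of 227 (87.2%, 82.3 to 91.0%), with an interval that overlapped that of the 424. The outside regions with a neighbour lay a median of 275 kb from open chromatin, so these groups of HEB regions were mostly not beside an open region. Spacing was short, with a median of 1543 bp between centres (quartiles 941 and 3423 bp) against 2990 bp (1340 and 6233) among inside regions and 3606 bp among low-scoring outside regions with a neighbour. Spacing of up to 2 kb made up 64 of the 103 (62.1%) outside and 97 of the 255 (38.0%) inside.

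Pairs of 2 high-scoring outside regions within 10 kb numbered 23 and drew on 40 regions. Their spacing ran from 512 to 4821 bp, with a median of 1251 bp, and no pair was more than 5 kb apart. Of the 23 pairs, 16 lay more than 100 kb from open chromatin, against 59.4% of the 424 regions. Scores within a pair differed by a median of 3 and by at most 25. A further 70 pairs joined a high-scoring to a low-scoring outside region, and 12 joined one to an inside region.

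The 5 windows of 100 kb with the most of these regions held 3, 3, 2, 2 and 2. On chromosome 1, the window from 50400001 to 50500000 held 3 and no other HEB, TCF1 or DNaseI region. The regions there started at 50427259, 50428638 and 50429889, scored 15, 26 and 15, and stood 1379 and 1251 bp apart. On chromosome 5, the window from 146900001 to 147000000 also held 3 and no region of another kind, with starts at 146987327, 146987839 and 146991294 and scores of 15, 17 and 15. The other windows named by count and then position were chr2:82900001-83000000, chr3:26400001-26500000 and chr3:43600001-43700000. None of the 5 held a DNaseI or TCF1 region. The 424 regions spread over 399 windows, 2 of which held 3 and 21 of which held 2, so they were scattered singly over the genome apart from these short groups.

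The regions were more frequent toward the start of chromosomes. Mouse autosomes carry the centromere at the end where coordinates begin. Each chromosome's span, between its outermost regions in the lists, was divided into 10 equal bins. The first bin held 72 of the 424 (16.98%, Wilson interval 13.7 to 20.8%), against 8.91% of all autosomal HEB regions. It held 56 of the 853 inside regions (6.57%, 5.09 to 8.43%) and 255 of the 2691 low-scoring outside regions (9.48%, 8.43 to 10.6%). The share of the 424 was 10.3 points above inside regions of equal score (6.501 to 14.5) and 7.51 points above low-scoring outside regions (4.03 to 11.5).

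At the other end the order was different. The last bin held 10.8% of the 424, 19.3% of inside regions, 13.7% of low-scoring outside regions and 17.1% of all DNaseI regions, which had 6.37% in the first bin. Of all high-scoring HEB regions, 56.3% (72 of 128) were outside DNaseI regions in the first bin and 21.8% (46 of 211) in the last. The 72 regions of the first bin lay a median of 377 kb from open chromatin, and the others 164 kb, with a median score of 18 in both. Of the 72, 4 overlapped a TCF1 region, against 20 of all 424 (4.72%).

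**Figure D5:**
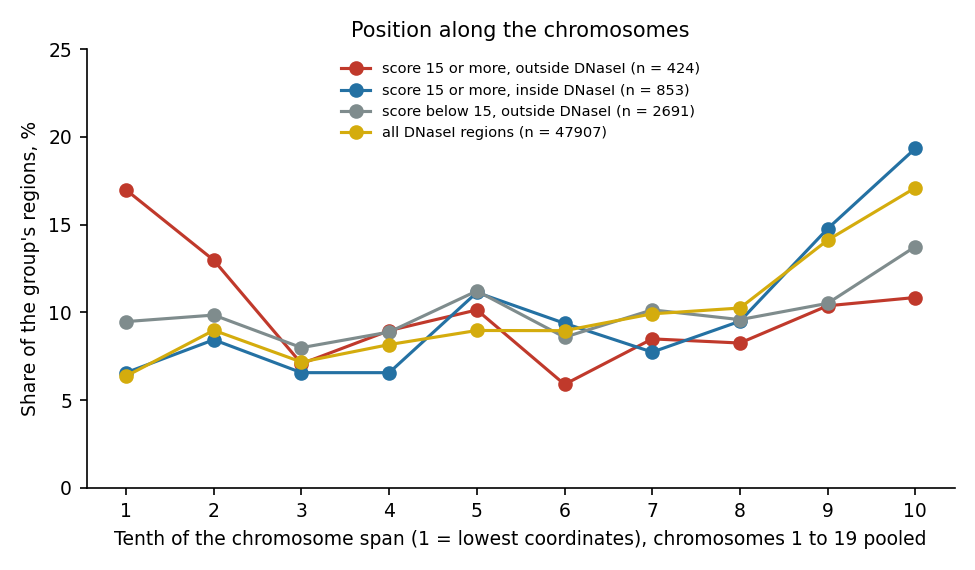
Share of each group's regions (y axis, %) in each bin of the chromosome span, counted from the start (x axis), chromosomes 1 to 19 pooled. High-scoring outside regions have 16.98% in the first bin and 10.8% in the last, whereas inside regions have 6.57% and 19.3%.

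The chromosomes differed in what share of their high-scoring HEB regions lay outside open chromatin. It was highest on chromosome 14, with 27 of 49 (55.1%, 41.3 to 68.1%), followed by chromosome 12 with 21 of 45 (46.7%, 32.9 to 60.9%). It was lowest on chromosome 11, with 16 of 105 (15.2%, 9.60 to 23.3%), where DNaseI regions were densest at 38.5 per Mb. They were sparsest on chromosome 3, at 12.5 per Mb, where the share was 40% and not the highest. A link between density and share was not tested. Intervals of chromosomes 14 and 11 did not overlap, and those of most others overlapped with both or with one. Per Mb of span, the outside regions ranged from 0.118 on chromosome 10 to 0.281 on chromosome 5, which held 42. The high-scoring inside regions ranged from 0.184 on chromosome 14 to 0.7499 on chromosome 11, a wider range.

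A small set lay right beside open chromatin, 6.84% of the 424, near the 6.28% of low-scoring outside regions. The 29 regions within 2 kb of a DNaseI region stood beside 29 different ones, and these were not wide: their median width was 255 bp and their median DNaseI score 11, against 315 bp and 16 over all autosomal DNaseI regions. Of the 29 DNaseI regions, 4 carried another HEB region (13.8%) and 3 a TCF1 region (10.3%), against 3.46% and 6.12% of all autosomal DNaseI regions. No interval was computed for these shares, which rest on 4 and 3 regions, so no difference is read from them. None of the 29 HEB regions overlapped TCF1, and the Wilson interval of that share reaches up to 11.7%.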

How the data were processed

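Per the labels' protocols, SOLiD sequencing was used for the DNase I library and for immunoprecipitated HEB and TCF1 chromatin. The lists deposited by the authors give a position and a whole-number score per region, and no source states the unit of that score, so it was compared only within its own list. Build mm9 and HOMER 6.1 are named in the submitters' processing notes; for aligner, caller, thresholds, controls and pooling: not given in the sources used here.

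Distances are bases between region edges, or between centres for HEB neighbours. Inside regions were weighted to the 424 regions' scores, exact score by exact score (422 regions matched). Shares carry 95% Wilson intervals and differences 95% Newcombe intervals, with the effective size of the weighted group (729). Regions are not replicates, and no test was made. The members, comparisons and named regions (the 10 highest scores, up to 10 that meet TCF1, the 5 fullest windows of 100 kb, the 3 farthest and those at the edge of the rule) were chosen with earlier results of these data known. Motifs, gene positions and GC content were not run, for lack of an mm9 sequence. The distance functions were tested on simulated data. Python 3.11.15, numpy 2.4.6, pandas 2.3.3, scipy 1.17.1 and matplotlib 3.10.9 were used.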

Additional observations from a re-analysis of the deposited data

How the results depend on the processing

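Of 56 alternative values, 43 stayed within the interval of the reported value (for the number of regions, within 1.5 times) and none that was clear of 0 changed sign. With a score minimum of 20 there were 165 regions, the outside share was 27.7% and the TCF1 gap to inside regions 38.1 points. With a minimum of 13 the outside share was 36.3%. With only DNaseI regions above their median score it was 38.1%, and the gap in DNaseI regions within 10 kb was 63.6 points. That gap was 54.6 points within 2 kb and 63.9 within 50 kb. The TCF1 gap was 36.8 points with 500 bp allowed and 45.3 with 10 kb. The HEB neighbour gap (inside minus outside) was -3.66 points within 2 kb (-7.95 to 0.341) and 18.3 within 50 kb. It also had intervals clear of 0 with a minimum of 13 (7.11 points) or 20 (9.73), with stronger DNaseI regions (8.04) and unweighted (5.60). The gap in the first bin was 8.78 to 11.4 points, and 7.63 points in the first 10 Mb. The gap to low-scoring outside regions beyond 100 kb was 16.8 to 23.2 points. Its alternatives, and for position the first 10 Mb, the unweighted comparison, 1 region per cluster and leaving out chromosome 5 (8.93 points), were chosen after seeing the data. Windows of 1 Mb held at most 4 regions. The causes were not tested. HEB neighbours with 1 region per cluster gave no value, since such thinning removes all neighbours within 10 kb. No paired analysis was possible because each assay had 1 sample. Depth and control signal are unknown, so a region missing from a list has no limit set on it.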

Other observations

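The excess toward the start of chromosomes was not carried by 1 chromosome. The share of high-scoring outside regions in bin 1 of 10 was above that of inside regions on 16 of 19 chromosomes and below on 3 (chromosomes 16, 17 and 19). Chromosome 5 held the most, with 11 of its 42 outside regions against 0 of its 69 inside regions in the first bin. On chromosome 9 these counts were 6 of 17 and 1 of 40, and on chromosome 6 they were 9 of 35 and 2 of 50. Chromosome 19 went the other way, with 0 of 8 outside and 8 of 24 inside. In the first 10 Mb of each span, in place of the first bin, lay 13.4% (10.5 to 17.02%) of high-scoring outside, 5.86% (4.47 to 7.64%) of inside and 8.03% (7.06 to 9.11%) of low-scoring outside regions.

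HEB scores skipped some whole numbers: between 10 and 40, no HEB region of any chromosome carried 14, 21, 28 or 35. A score of 15 was therefore the step next to 13, and the median distance to open chromatin was 89.4 kb for the 144 outside regions at 13 and 134 kb for the 72 at 15.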
